A study of Mus musculus with 4 samples.

Results

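Of the 26496 peaks in a merged ALaP-seq list from mouse embryonic stem cells, 625 lay at the 5′ end of a noncoding RNA gene and away from protein-coding starts. A peak was taken where its midpoint fell within 1 kb of the annotated 5′ end of a lincRNA, antisense, miRNA or snoRNA gene on an autosome. It also had to lie more than 1 kb from every annotated transcript start of protein-coding genes. Of 26268 autosomal peaks, 1515 met the first condition, and 890 of these were left out because a coding start was near. The 625 peaks were 2.38% of all autosomal peaks (95% interval 2.20 to 2.57%) and 3.96% of the 15788 that lay over 1 kb from coding starts (3.66 to 4.27%). They stood at 585 annotated noncoding genes with 581 different 5′ ends, and 44 of them were within 1 kb of more than 1 such end.

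ALaP-seq maps chromatin that lies near PML bodies: a peroxidase, APEX, is joined to the PML protein and adds biotin to its surroundings once hydrogen peroxide is present. The series comprised E14 cells with an APEX-PML knockin, 2 samples labelled H2O2+ (peroxide given) and 2 labelled H2O2- (peroxide omitted, the negative control), all in medium with leukemia inhibitory factor, CHIR99021 and PD0325901. The list gives only chromosome, start and end, in the mm10 build, and names no sample. H2O2+ was therefore not compared with H2O2-, no spread between replicates could be computed, the depth is unknown, and the identity of the cells could not be checked against markers. Presence in the list and peak width are the values available, intervals cover counting error only, and no test was made.

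Noncoding genes differ in how their 5′ ends relate to transcription. A lincRNA is a long RNA transcribed between coding genes, and an antisense RNA runs against a coding gene, so their annotated 5′ ends are meant as transcription starts. A miRNA gene model is the hairpin that is cut out of a longer primary transcript, and most snoRNAs are released from introns of host genes, so their annotated 5′ ends are often processing sites inside another transcript. U3 and U8 are snoRNAs of ribosomal RNA processing that, in vertebrates, have promoters of their own. PML bodies are nuclear structures scaffolded by PML and its SUMO modification. They lie among other nuclear bodies, such as the paraspeckles that the lincRNA Neat1 builds and the speckles in which Malat1 gathers.

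The sequences below show the 5′ ends that carry the best known genes of the set, read from GRCm38 on the strand of the gene. Capitals mark the transcribed bases from the 5′ end on, and lower case the bases before it. The U3 genes Rnu3b1, Rnu3b2, Rnu3b3 and Rnu3b4 are identical here, so the sequence of Rnu3b1 (mm10 chr11:87443177-87443296) stands for all 4. Snord118 encodes U8 (chr11:69073367-69073486). Malat1 (chr19:5802598-5802747), Neat1 (chr19:5845404-5845553), Kcnq1ot1 (chr7:143296475-143296624) and Trp53cor1 (chr17:29079105-29079254) are all on the minus strand, and each has a peak across its 5′ end.
Rnu3b1: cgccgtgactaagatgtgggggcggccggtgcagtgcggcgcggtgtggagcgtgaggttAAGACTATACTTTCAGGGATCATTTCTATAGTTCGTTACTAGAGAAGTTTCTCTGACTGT
Snord118: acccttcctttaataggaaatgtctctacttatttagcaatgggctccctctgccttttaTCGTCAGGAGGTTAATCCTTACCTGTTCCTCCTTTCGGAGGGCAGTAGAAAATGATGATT
Malat1: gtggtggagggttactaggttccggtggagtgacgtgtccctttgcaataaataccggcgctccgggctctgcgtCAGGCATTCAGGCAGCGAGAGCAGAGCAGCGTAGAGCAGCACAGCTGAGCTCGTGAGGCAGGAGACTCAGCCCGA
Neat1: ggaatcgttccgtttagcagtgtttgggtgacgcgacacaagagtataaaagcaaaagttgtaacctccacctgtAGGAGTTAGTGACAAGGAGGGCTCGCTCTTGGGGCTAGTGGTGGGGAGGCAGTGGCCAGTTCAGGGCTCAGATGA
Kcnq1ot1: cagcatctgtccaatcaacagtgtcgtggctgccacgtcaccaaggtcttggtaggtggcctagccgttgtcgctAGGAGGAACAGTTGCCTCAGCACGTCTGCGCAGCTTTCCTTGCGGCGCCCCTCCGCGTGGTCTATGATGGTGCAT
Trp53cor1: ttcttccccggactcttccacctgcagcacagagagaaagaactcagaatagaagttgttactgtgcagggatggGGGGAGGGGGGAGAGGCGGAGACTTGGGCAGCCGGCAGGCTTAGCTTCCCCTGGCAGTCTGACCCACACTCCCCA

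At the miRNA genes the products are known, and the mature RNAs show what the peaks stand next to. The miR-290 to miR-295 and miR-302 to miR-367 clusters are characteristic of mouse embryonic stem cells. Of 20 listed miRNA genes with a peak, 18 were matched in RefSeq (GRCm38.p6), with 33 mature miRNAs. Only the 5p product was matched for Mir302a and Mir292 and only the 3p product for Mir34c, so seed counts cover matched products. The commonest seed among these, bases 2 to 8 and written in capitals, was AAGUGCU, held by 5 mature miRNAs from the 2 clusters. Others in the same loci carried shifted or altered forms of it. The miR-34 and miR-200 products, from separate loci, have seeds of their own.
miR-291a-3p: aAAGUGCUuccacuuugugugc
miR-294-3p: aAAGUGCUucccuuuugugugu
miR-295-3p: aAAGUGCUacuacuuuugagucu
miR-302b-3p: uAAGUGCUuccauguuuuaguag
miR-302d-3p: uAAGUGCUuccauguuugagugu
miR-302c-3p: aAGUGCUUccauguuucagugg
miR-290a-3p: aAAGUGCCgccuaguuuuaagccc
miR-291b-3p: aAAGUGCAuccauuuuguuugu
miR-367-3p: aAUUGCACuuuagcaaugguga
miR-34b-5p: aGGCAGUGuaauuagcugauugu
miR-200b-3p: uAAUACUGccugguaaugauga

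Most of the peaks belonged to long noncoding genes. The nearest noncoding gene was a lincRNA for 394 peaks (63.0%, 95% interval 59.1 to 66.8%) and an antisense RNA for 137 (21.9%, 18.7 to 25.4%). It was a miRNA for 63 (10.1%, 7.83 to 12.7%) and a snoRNA for 31 (4.96%, 3.39 to 6.97%). Counted by gene, 5.23% of the noncoding genes that could hold such a peak had one, 585 of 11176. A gene was counted here where at least 1 position of its window lay over 1 kb from all coding starts. The share was 6.73% for lincRNA genes (348 of 5172) and 4.61% for antisense genes (123 of 2668), and these intervals did not overlap (6.06 to 7.45% and 3.85 to 5.48%). Peaks at a coding start, which the rule leaves out, lay within 1 kb of 200 of 5209 lincRNA genes and 440 of 2913 antisense genes, and how far this difference in the usable window bears on the shares was not tested. The share was 3.6% for miRNA genes (70 of 1944) and 3.16% for snoRNA genes (44 of 1392), whose intervals overlapped.

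Most of these genes had a single peak. Assigned to its nearest gene, the set fell on 545 genes, of which 470 had 1 peak, 70 had 2 and 5 had 3. The 5 were Malat1, the lincRNAs AC141471.3 and Gm20939, the antisense gene Gm17276 and n-TStga1, which the annotation types as a miRNA. At Malat1 the peaks were 950, 720 and 130 bp wide. Those of Gm20939 measured 694, 270 and 148 bp, and 2 of them had near-identical copies elsewhere in the genome. Those of Gm17276 measured 130, 145 and 265 bp, those of n-TStga1 166, 219 and 181 bp and those of AC141471.3 189, 142 and 333 bp.

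The peaks crowded around the 5′ end, with more of them before it than after it. The midpoint was upstream for 354 of the 625 (56.6%, 95% interval 52.7 to 60.6%), against 49.0% of the 8560 peaks within 1 kb of the 5′ end of a protein-coding gene (47.9 to 50.03%). Midpoints within 200 bp of the end were less common at noncoding than at coding genes, 44.0% (40.1 to 48.0%) against 67.6% (66.6 to 68.6%). The 200 bp before the noncoding end held 169 midpoints and the 200 bp after it 106. For miRNA peaks these bins held 9 and 12, and for snoRNA peaks 2 and 4, so both ran the other way. By type, the upstream share was 57.1% for lincRNA peaks (52.05 to 62.05%). The intervals of antisense (47.5 to 64.7%), miRNA (44.0 to 69.5%) and snoRNA peaks (33.1 to 69.8%) held an even split. The peak itself ran across the 5′ end for 202 of the 625 (32.3%, 28.7 to 36.1%), against 54.1% at coding genes (53.05 to 55.2%). Among the types, 34.8% of the lincRNA peaks, 32.1% of the antisense, 23.8% of the miRNA and 19.4% of the snoRNA peaks did so.

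**Figure D1:**
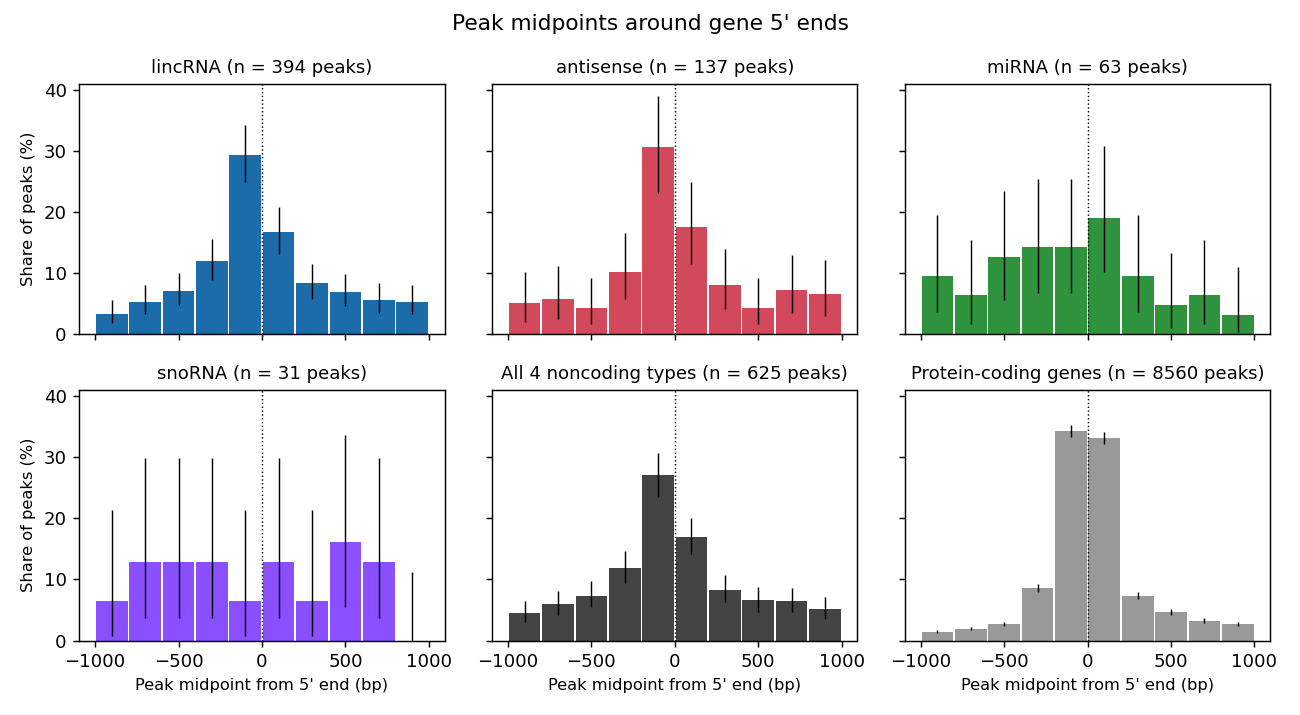
Share of peaks (%, vertical) by signed distance of the peak midpoint from the gene's 5′ end (bp, horizontal, bins of 200 bp, negative upstream) for each noncoding type, for all 625 peaks and for protein-coding genes. Bars are shares and lines exact 95% intervals. The bin just upstream is the tallest for lincRNA and antisense genes, while snoRNA peaks are spread over the window.

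At long noncoding genes, peaks were more numerous and lay closer at the 5′ end than at the 3′ end. For lincRNA genes, 397 peaks outside coding starts lay within 1 kb of the 5′ end and 168 within 1 kb of the 3′ end. Of these, 45.8% at the 5′ end and 17.3% at the 3′ end were within 200 bp. For antisense genes the numbers were 141 peaks at the 5′ end and 87 at the 3′ end, with 48.2% and 18.4% within 200 bp. These counts take every gene of the type, so a peak near genes of 2 types is in both. How much of the 3′ windows lies outside coding starts was not counted. How far a difference in the usable window between the ends bears on these numbers was therefore not tested.

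At snoRNA genes the midpoints were less concentrated than at lincRNA and antisense genes, while at miRNA genes the intervals overlapped. Of the 63 miRNA peaks, 21 lay within 200 bp of the hairpin (33.3%, 22.0 to 46.3%), with a median position 174.5 bp upstream. Of the 31 snoRNA peaks, 6 lay within 200 bp (19.4%, 7.45 to 37.5%), and over the whole window 16 were upstream and 15 downstream. For comparison, 46.2% of the lincRNA peaks (41.2 to 51.3%) and 48.2% of the antisense peaks (39.6 to 56.9%) lay within 200 bp.

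Peaks of the noncoding set were about as wide as those at coding starts and wider than the other peaks, and the snoRNA peaks included a group of wide ones. The median was 248 bp (95% interval 228 to 264), against 242 bp at coding starts (238 to 247) and 212 bp at the other autosomal peaks (209 to 214). By type it was 255 bp for lincRNA (242 to 274) and 210 bp for antisense peaks (174 to 234). It was 245 bp for miRNA (181 to 291) and 323 bp for snoRNA peaks (180 to 616). Only the lincRNA interval lay above the 212 bp of the other peaks. Widths ran from 91 to 2116 bp. At least 500 bp was reached by 90 peaks, among them 60 of the lincRNA, 11 of the antisense, 7 of the miRNA and 12 of the 31 snoRNA peaks. A width of 900 bp or more was reached by 19.

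**Figure D2:**
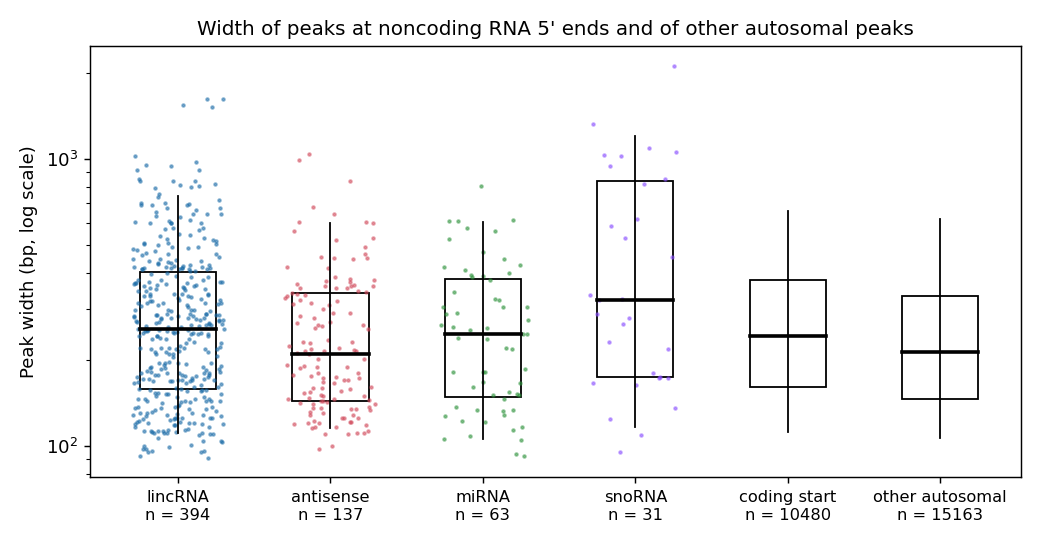
Peak width (bp, log scale) by type of the nearest noncoding gene, then for peaks at coding starts and for the other autosomal peaks. Points are single peaks, boxes quartiles with the median as a thick line, and thin lines the 5th to 95th percentile; the medians lie between 210 and 323 bp and the widest peak, 2116 bp, is a snoRNA one.

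The widest peaks were at snoRNA genes and at long noncoding genes that carry only a clone or model name. The widest of all, 2116 bp, lay at Snord52, a box C/D snoRNA (chr17:34949506-34951621). The next were at the lincRNAs Gm31793 (1623 bp, chr10:130541912-130543534), Gm39469 (1619 bp), 4932422M17Rik (1544 bp) and Gm28872 (1512 bp). The Gm28872 peak was also 445.5 bp from the 5′ end of Rnu11, the U11 RNA of the minor spliceosome. Snord118, which encodes U8, followed with 1323 bp, then Gm22711 with 1089 bp, beside Snord104 with its own 289 bp peak. Rnu3b1 (1061 bp), AC144792.1 (1037 bp) and Rnu3b4 (1035 bp) completed the 10 widest.

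Each type had wide peaks of its own. The 5 widest snoRNA peaks were those of Snord52, Snord118, Gm22711, Rnu3b1 and Rnu3b4. The fifth widest lincRNA peak, after those already named, was that of Platr19 (1028 bp, chr12:12787851-12788878). Antisense peaks were led by AC144792.1, Gm15287 (991 bp), Gm16897 (836 bp), 5031415H12Rik (678 bp) and Gm47061 (645 bp). Those of miRNA genes were led by Mir290a (807 bp), Mir8120 (615 bp), Mir135b (610 bp), Mir1983 (606 bp) and Mir6347 (576 bp). Of all these, the Gm31793 peak had 1 near-identical copy in the genome and the others none.

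The centres of the widest peak of each type show their base composition, all in lower case since no transcribed base is marked. They come from Gm31793 (chr10:130542664-130542783), AC144792.1 (chr19:42409652-42409771), Mir290a (chr7:3217818-3217937) and Snord52 (chr17:34950504-34950623, read on the minus strand). CpG observed/expected over 500 bp, a measure of how far CpG pairs have been kept, was 0.27, 0.29, 0.29 and 0.23 at the same peaks in this order. All 4 are CpG-poor by the limit of 0.4.
Gm31793: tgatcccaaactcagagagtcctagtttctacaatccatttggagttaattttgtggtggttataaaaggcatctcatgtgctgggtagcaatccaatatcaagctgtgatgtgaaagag
AC144792.1: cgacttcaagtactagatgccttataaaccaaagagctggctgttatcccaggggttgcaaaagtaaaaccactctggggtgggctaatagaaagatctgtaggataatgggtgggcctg
Mir290a: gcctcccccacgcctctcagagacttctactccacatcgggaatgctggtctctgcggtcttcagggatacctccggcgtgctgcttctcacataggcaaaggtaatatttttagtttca
Snord52: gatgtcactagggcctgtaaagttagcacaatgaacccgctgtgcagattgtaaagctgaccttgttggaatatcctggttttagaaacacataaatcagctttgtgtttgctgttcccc

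The U3 genes gave a regular pattern. All 4 lie in an intron of the coding gene Tex14 on chromosome 11, and each was followed by a wide peak that began inside the gene and ran past its end. Relative to the 5′ end, the peak ran from 62 to 1122 bp at Rnu3b1 and from 123 to 1146 bp at Rnu3b2. At Rnu3b3 it ran from 86 to 1027 bp and at Rnu3b4 from 123 to 1157 bp. The genes are 215 or 216 bp long. None of these peaks covered the 5′ end, and Rnu3b1 had a further peak of 174 bp centred 419.5 bp upstream. Snord118, the U8 gene, differed in that its peak began 227 bp before the 5′ end and reached to 1095 bp after it.

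Reads cannot be assigned among the U3 genes over the shared stretch. The 4 genes have the same bases over 266 positions before the 5′ end and 216 from it on. The shared stretch covers only the first part of the wide peaks, which end 1027 to 1157 bp after the 5′ end. Repeat-masked bases made up 55.8% of the Rnu3b1 peak, 71.3% of the Rnu3b2, 39.0% of the Rnu3b3 and 45.9% of the Rnu3b4 peak. The centre of the Rnu3b2 peak had 32 near-identical copies, and those of the wide Rnu3b1, Rnu3b3 and Rnu3b4 peaks had none. The submitters mapped to a repeat-masked genome, so how the peaks came to span these bases was not tested. The Snord118 peak was 10.96% masked and had no copy.

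**Figure D3:**
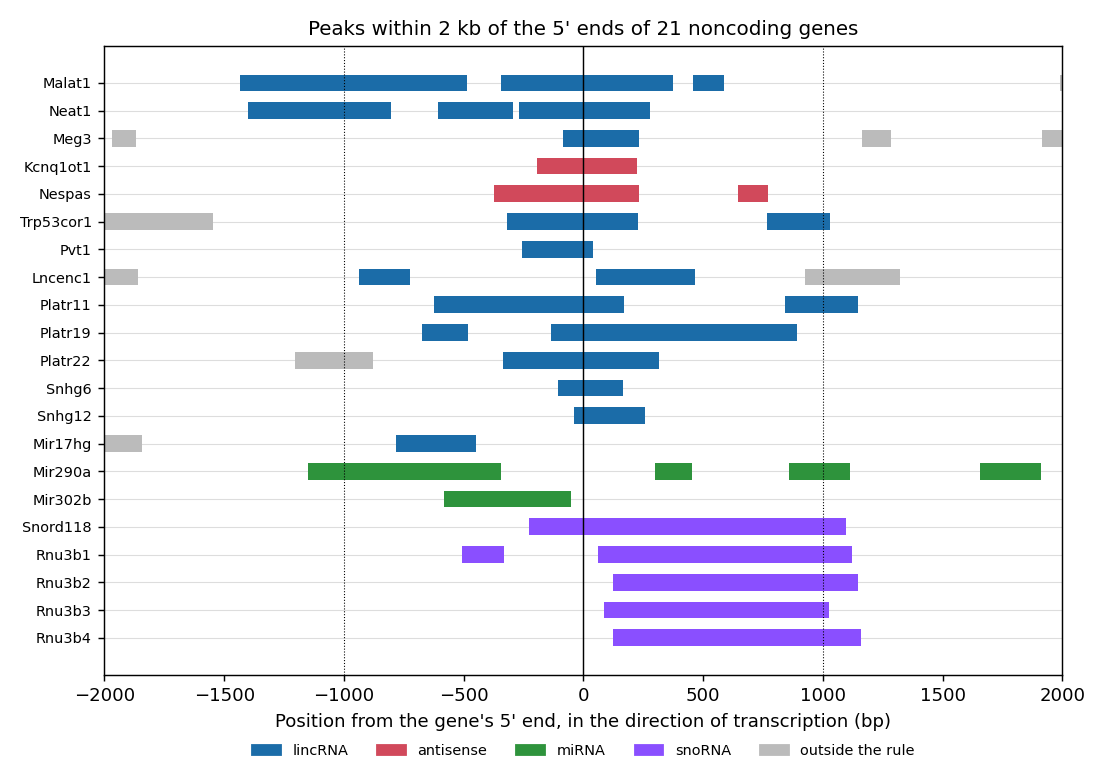
Peaks within 2 kb of the 5′ ends of 21 noncoding genes, drawn to scale along the direction of transcription (bp from the 5′ end, horizontal), with dotted lines at 1 kb. Coloured bars are peaks of the set, in the colour of the type of the row's gene, and grey bars peaks outside it; the 4 U3 genes show a wide bar starting 62 to 123 bp after the 5′ end.

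Genes for long RNAs of nuclear bodies and chromatin often had a peak. Of 12 listed names, 8 were autosomal genes of the 4 types and 6 could hold a peak of the set, and 5 of the 6 did (83.3%, 35.9 to 99.6%). The background of 5.23% is that of all genes of the types. Over the list's 8 peaks the median CpG observed/expected was 0.69, against 0.39 for the whole set. How far CpG content bears on the share was not tested. Neat1, the scaffold of paraspeckles, had a 547 bp peak centred 3 bp after the 5′ end (chr19:5845202-5845748). A second peak, of 314 bp, lay upstream of it and is nearest to the antisense gene Frmd8os. At Malat1 the 720 bp peak (chr19:5802297-5803016) covered the 5′ end and the 950 bp peak lay upstream of it. Airn, the antisense RNA of the Igf2r locus, was the member with none. Rmrp and Tug1 could not be counted, since their windows lie wholly within 1 kb of coding starts.

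The listed imprinted noncoding RNAs had a peak at 3 of 7 genes (42.9%, 9.90 to 81.6%), against 5.23% of all noncoding genes counted. Kcnq1ot1, the antisense RNA that silences its imprinted neighbours in cis, had a 416 bp peak centred 14.5 bp after its 5′ end (chr7:143296327-143296742). Meg3, expressed from the maternal allele, had one of 315 bp that covered its 5′ end. Nespas, which runs antisense to a start of Gnas, had peaks of 603 and 125 bp. Airn, H19, Mirg and Gm28875 had none. Kcnq1ot1 and Meg3 are also in the list of nuclear RNAs, so the 2 lists share genes. Over the 4 peaks of the imprinted list the median CpG observed/expected was 0.58, against 0.39 for the whole set. How far CpG content bears on the share of the imprinted list was not tested.

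In a list of lncRNAs reported in embryonic stem cells, 15 of 32 genes had a peak (46.9%, 29.1 to 65.3%), from 22 peaks. Over all noncoding genes counted the share was 5.23%, and over lincRNA genes 6.73%. The list joins well known RNAs with all genes named Platr, for pluripotency-associated transcript. Malat1, Neat1 and Miat are also in the list of nuclear RNAs and Mir17hg in that of miRNA hosts. The Platr genes alone had a peak at 7 of 21 (33.3%, 14.59 to 56.97%) and the other genes at 8 of 11 (72.7%, 39.03 to 93.98%), a split made after the values were seen. Of the Platr genes, Platr4, Platr10, Platr11, Platr19, Platr22, Platr26 and Platr27 had one. Platr19 had the widest at 1028 bp, followed by Platr11 at 794 bp and Platr22 at 652 bp. Platr20 and Platr23 had peaks only at a coding start, and Platr1, Platr2 and Platr3 were among those with none. The median width over the 22 peaks was 316.5 bp and their median CpG observed/expected 0.44, against 248 bp and 0.39 for the whole set.

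The other genes of the list that had a peak included well studied lncRNAs. Trp53cor1, known as lincRNA-p21 and induced by p53, had peaks of 545 and 264 bp (chr17:29078953-29079497 and chr17:29078150-29078413), 11751 and 12694.5 bp from the nearest coding start, that of Cdkn1a. Pvt1, the neighbour of Myc, had a 296 bp peak across its 5′ end. Lncenc1, expressed in naive embryonic stem cells, had peaks of 414 and 213 bp. Halr1, beside the Hoxa cluster, had 1 of 130 bp, and Miat, a nuclear lncRNA, 1 of 255 bp that began after its 5′ end. Eprn, Rmst and Gm26917 had none.

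Host genes of snoRNAs had a peak at 5 of 7 (71.4%, 29.0 to 96.3%), against 5.23% of all noncoding genes counted. The peaks were 272 bp at Snhg6, 296 bp at Snhg12, 360 bp at Snhg7os and 477 bp at Epb41l4aos, and the fifth, of 378 bp, lay within 1 kb of Snhg20 but nearer to Mir6516. Their median CpG observed/expected was 0.91, the highest of the 10 lists. Of lincRNA genes with a value of 0.6 or more around the 5′ end, 19.9% had a peak. How far CpG content bears on the share of this list was not tested. Snhg18 had no peak and Snhg10 had one only at a coding start. Host genes of miRNAs had a peak at 2 of 11 (18.2%, 2.28 to 51.8%), Mir17hg with 333 bp and C130071C03Rik with 248 and 166 bp. This interval holds the 5.23% of all genes. H19, Mir155hg and Mir142hg were among the 9 with none.

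Noncoding genes named after developmental regulators had a peak at 3 of 21 (14.3%, 3.05 to 36.3%). These were Evx1os (449 bp), Hoxb3os (224 bp) and Otx2os1 (156 and 119 bp). Hotair, Hottip, Hotairm1 and Hoxb5os, all from Hox clusters, had none, nor did Dlx1as, Pax6os1 or Nkx2-2os. The interval holds the background of 5.23%.

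The miRNA lists differed in how many of their genes had a peak. Of 23 genes in clusters typical of embryonic stem cells, 14 had a peak (60.9%, 38.5 to 80.3%), against 3.6% of all miRNA genes. The 14 share few peaks: the 9 genes from Mir290a to Mir295 had 5 peaks, of 807, 154, 253, 257 and 394 bp, and the 5 of the miR-302 to miR-367 cluster had 1, of 528 bp. The 807 bp peak lay upstream of the first hairpin, Mir290a (chr7:3217474-3218280, centred 749 bp before it). The 528 bp peak lay upstream of Mir302b (chr3:127544647-127545174, centred 317.5 bp before it) in an intron of Larp7. The products printed above, with the shared seed, come from these 2 loci.

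Hairpins of the other stem cell clusters had no peak. Those of the miR-17 to miR-92 cluster and of the miR-106b to miR-25 cluster had none within 1 kb, while the host Mir17hg had its 333 bp peak 616 bp upstream of its 5′ end. Of 36 genes for let-7 and lineage miRNAs, 2 had a peak (5.56%, 0.680 to 18.7%, an interval that holds the 3.6% of all miRNA genes), Mir124a-1 with 560 bp and Mir124a-2 with 127 bp. The let-7 genes counted, and those of miR-1, miR-133 and miR-122, muscle and liver miRNAs, had none. Of 17 genes for p53 and growth arrest miRNAs, 4 had a peak (23.5%, 6.81 to 49.9%) from 2 peaks, 122 bp at Mir34b and Mir34c and 134 bp at Mir200a and Mir200b. Genes that share a peak are not independent, so the intervals of the miRNA lists are too narrow. Mir34a, Mir192 and Mir21a had none.

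Named snoRNA genes had a peak at 19 of 114 (16.7%, 10.3 to 24.8%), against 3.16% of all snoRNA genes. Most of these RNAs sit in introns of a host, so a peak at the host can count for several. The genes are therefore not independent, and the interval is too narrow. Over the list's 19 peaks the median CpG observed/expected was 0.56. Of all 1392 snoRNA genes, 1321 had a value below 0.4 around the 5′ end, and 1.59% of these had a peak. How far CpG content bears on the share of this list was not tested. A 180 bp peak at Snord78 was within 1 kb of Snord47 and of both entries named Snord80, all inside the Gas5 host. The peak at the start of Snhg12 also counted for both entries named Snora16a, and that of Snhg7os for Snora17. Snora24 had a 616 bp peak, Snord49b, beside Snord49a, one of 583 bp and Snora9 peaks of 531 and 325 bp, the 325 bp one with 1 near-identical copy. Smaller ones were found at Snora26 (336 and 279 bp), Snord1c (266 and 109 bp), Snord50b, beside Snord50a (173 bp), and Snord37 (124 bp).

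**Figure D4:**
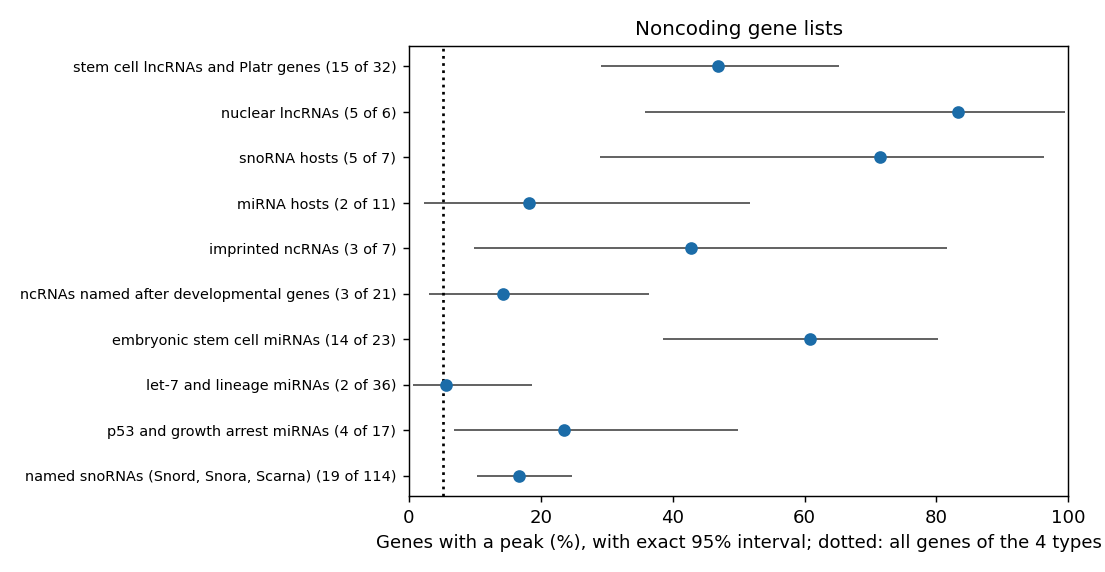
Share of genes with a peak of the set (%, horizontal) in each of 10 gene lists, with the number of genes in brackets. Points are shares, lines exact 95% intervals and the dotted line the 5.23% of all genes of the 4 types; embryonic stem cell miRNAs are at 60.9% and let-7 and lineage miRNAs at 5.56%.

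The base composition of the set lay between that of peaks at coding starts and that of the other peaks. Median CpG observed/expected in 500 bp was 0.39 (0.36 to 0.43), against 0.76 at coding starts and 0.21 at the other autosomal peaks. Median GC content was 54.0%, against 62.0% and 49.0%. A composition like that of a CpG island, with GC of at least 50% and CpG observed/expected of at least 0.6, was found at 156 of the 625 (24.96%, 21.6 to 28.5%), against 73.8% at coding starts and 5.36% at the others. CpG-poor sequence, under 0.4, made up 51.4% of the set (47.4 to 55.3%), 11.5% of the coding-start peaks and 82.3% of the others. The set thus held CpG-rich starts such as those of Snhg6 (0.95), Epb41l4aos (0.95) and Mir17hg (0.91) beside poor ones such as Platr19 (0.18).

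The share of noncoding genes with a peak also followed the CpG content of the 5′ end, which does not depend on where peaks are. It was 3.31% of genes below 0.4 (291 of 8779), 9.18% between 0.4 and 0.6 (119 of 1296) and 15.9% at 0.6 or more (175 of 1101). LincRNA genes ran from 4.42% in the lowest class to 19.9% in the highest, and antisense genes from 2.86% to 9.48%. In the highest class the intervals of lincRNA genes (16.3 to 23.8%) and antisense genes (6.97 to 12.5%) did not overlap. The left-out peaks at coding starts lay near 200 of 5209 lincRNA and 440 of 2913 antisense genes over all classes. They were not counted by CpG class, and how far the usable window bears on this difference was not tested. Among miRNA genes 2.42% of the lowest and 15.8% of the highest class had a peak. Among snoRNA genes the shares were 1.59% and 57.1%, with 16 of 28 genes in the highest. Neighbouring miRNA or snoRNA genes can share a peak, so these genes are not independent and their intervals are too narrow. Among lincRNA genes, 9.74% of those with 2 or more annotated transcripts had a peak (8.10 to 11.6%), against 5.86% of those with 1 (5.15 to 6.63%). Among antisense genes the intervals overlapped, with 5.84% (4.14 to 7.95%) against 4.23% (3.40 to 5.20%).

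**Figure D5:**
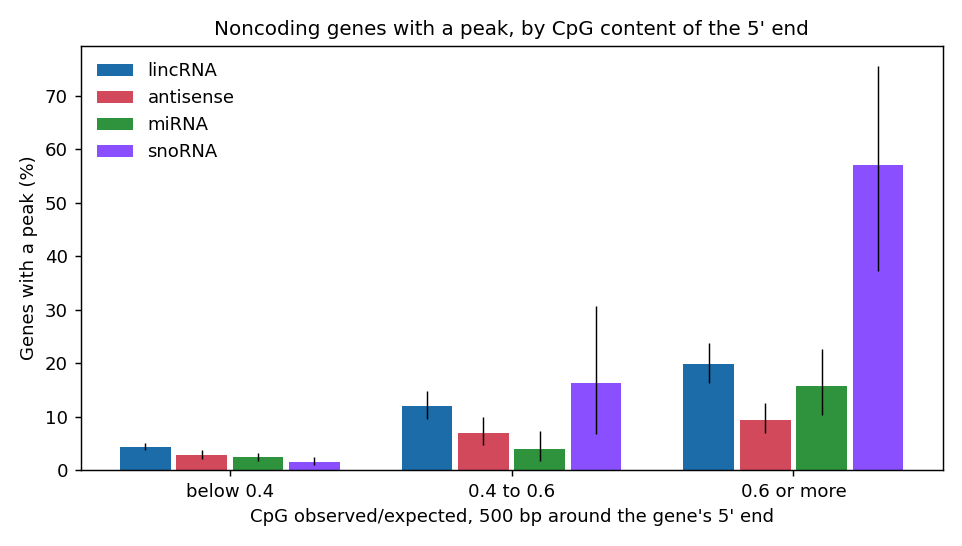
Share of noncoding genes with a peak of the set (%, vertical) by class of CpG observed/expected in 500 bp around the gene's 5′ end, for each type. Bars are shares and lines exact 95% intervals, which are too narrow where genes share a peak. The share climbs with the class in each type, to 57.1% of 28 snoRNA genes in the highest.

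Where the peaks lay relative to coding genes differed between the types. Of the 625, 475 were outside protein-coding genes (76.0%), 111 in an intron and 39 in an exon. The lincRNA peaks were outside in 92.4% of cases and the antisense peaks in 36.5%. All 87 antisense peaks inside a coding gene had the coding gene on the opposite strand. The annotation types imply both patterns, and shares over all genes of each type were not computed. Of 24 miRNA peaks inside a coding gene, 12 had it on the same strand, and of 9 snoRNA peaks 7. The median distance to the nearest coding start was 18207 bp (15572 to 20342.5), with 29116 bp for lincRNA and 5792 bp for antisense peaks.

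Near coding genes, most of the peaks had the noncoding gene on the opposite strand. Of 152 peaks between 1 and 5 kb from a coding start, 64 lay upstream of it with the noncoding gene on the opposite strand (42.1%), and 59 downstream of it on the opposite strand (38.8%). The same strand was seen for 13 upstream and 16 downstream. The layouts of all noncoding genes at this distance were not counted, so these shares have no background. Of 25 miRNA peaks, 7 were opposite upstream, 7 opposite downstream, 5 same strand upstream and 6 same strand downstream. For lincRNA peaks the upstream opposite layout was the commonest (32 of 56) and for antisense peaks the downstream opposite one (41 of 65), the layout their annotation type implies. Evx1os (1357 bp from the Evx1 start), Otx2os1 (1290 and 1496.5 bp from Otx2) and Nespas (2352 and 3131 bp from Gnas) were of this near group.

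The peaks often had neighbours. Another peak of the list lay within 10 kb for 420 of the 625 (67.2%, 63.4 to 70.9%), against 55.1% of coding-start peaks and 59.5% of the others. The nearest one was within 1 kb for 175. The lower quartile of the distance to it was 871 bp, against 847.5 bp at coding starts and 1407.75 bp at the others. The median distance was 3862.5 bp (3002 to 5043.5). It was 7404.5 bp at coding starts (6936.5 to 7898) and 6029 bp at the others (5747.5 to 6333.5). The share with a neighbour within 10 kb was 80.6% for snoRNA peaks (62.5 to 92.5%) and 73.0% for miRNA peaks. It was 67.9% for antisense and 65.0% for lincRNA peaks, and the intervals overlapped. Chromosome 11 held the most peaks of the set (57), followed by chromosomes 17 (52) and 13 (51). Per eligible noncoding gene the highest shares were 10.1% on chromosome 17 and 9.14% on chromosome 11.

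Most short sequence words were found in a share of the set that lay between those of the comparison peaks. The 200 bp at the centre of each peak were searched on both strands. The GC box GGGCGG, bound by SP and KLF factors, was in 28.5% of the set (24.97 to 32.2%), against 53.2% of coding-start peaks, 12.5% of the others and 29.1% of all peaks in the list. The ETS word CCGGAAG was in 6.88% (5.02 to 9.16%), against 12.9%, 3.20% and 7.13% in the same order. The SOX word AACAAAG and the TATA box ran the other way. The SOX word was in 5.60% (3.93 to 7.70%), against 2.77%, 9.83% and, over all peaks, 6.94%. The TATA box, searched as TATAAA, was in 5.60% (3.93 to 7.70%), against 2.68%, 7.29% and, over all peaks, 5.40%. Both intervals held the share of all peaks, and that of the TATA box also held the share of the other peaks. The octamer ATTTGCAT, read by OCT factors, was in 3.36% (2.09 to 5.09%), against 0.992% at coding starts and 3.96% at the others, which the interval held, as it did the 2.77% of all peaks.

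The other words gave smaller shares or smaller differences. The CRE word TGACGTCA was in 1.60% of the set (0.770 to 2.92%), against 1.73% at coding starts and 0.211% at the others. The E-box CACGTG was in 5.60%, against 6.86% and 3.38%, and the YY1 word AAGATGGCG in 0.480%, against 2.15% and 0.270%. The AP-1 word TGANTCA was in 5.12%, against 2.82% and 6.29%, and the ESRRB word TCAAGGTCA in 1.60%, against 0.420% and 2.23%. All of these lay between the comparison sets, but each interval held the share of the nearer comparison set. The intervals were 3.93 to 7.70% for the E-box, 0.0991 to 1.40% for YY1, 3.53 to 7.15% for AP-1 and 0.770 to 2.92% for ESRRB. Over all peaks the shares were 0.845% for CRE, 4.80% for the E-box, 1.03% for YY1, 4.89% for AP-1 and 1.49% for ESRRB. Each interval held this share too.

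The STAT, KLF and CCAAT words had a higher share in the set than in both comparison sets. The STAT word TTCCNGGAA was in 13 peaks (2.08%, 1.11 to 3.53%), against 0.916% at coding starts (0.743 to 1.12%), 0.923% at the others (0.777 to 1.09%) and 0.951% of all peaks. The set's interval overlapped that of coding starts. Of the 13 peaks with the STAT word, 11 were lincRNA peaks (2.79% of these, 1.40 to 4.94%). The word was in 0 of 137 antisense, 1 of 63 miRNA and 1 of 31 snoRNA peaks. It was 1 of 13 words searched. For KLF, searched as CACCC, the share was 56.5% (52.5 to 60.4%), an interval that held the 53.6% of coding starts and the 52.8% of all peaks, with 52.3% at the others. The interval for CCAAT, 24.8% (21.5 to 28.4%), held the values of all the comparison peaks, 23.7% at coding starts, 22.8% at the others and 23.2% of all peaks. SP and KLF words can share bases with each other, and a word is a match of letters and not a bound site.

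Repeats and other annotations touched a minority of the peaks. A near-identical copy of the central 150 bp was found for 33 (5.28%, 3.66 to 7.34%), against 1.39% of coding-start peaks and 8.89% of the others. Over 50% of the bases were repeat-masked in 36 (5.76%), against 1.20% and 17.1%. A gene of another type, most often a processed transcript (21) or a miscellaneous RNA (11), began within 1 kb of 58 (9.28%). Such a gene was near 12 of the 31 snoRNA peaks. In RefSeq, 20 of the 625 (3.20%) were within 1 kb of a coding start that GENCODE M21 does not place there.

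The limits of 1 kb cut through a continuous range. The peaks just inside the noncoding limit were at Gm44341 (1000 bp), Platr11 (995.5 bp) and Gm17090 (994 bp). Those just outside were at n-TStga1 (1003.5 bp), Gm33979 (1012 bp) and Mir193a (1014.5 bp). Just inside the coding limit were the peaks at Gm10419 (1007.5 bp from Gm42517), 5730414N17Rik (1019.5 bp from Kmt2d) and Gm15469 (1026.5 bp from Ucn). Just left out were those at B130046B21Rik (993.5 bp from Ddn), 4930430O22Rik (985 bp from Msi1) and Gm45564 (983.5 bp from Plekha4).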

How the data were processed

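Genomic DNA from 4 ALaP-seq samples of E14 cells was sequenced. The submitters trimmed the reads (Trimmomatic), aligned them to repeat-masked mm10 (Bowtie2 2.3.5.1) and removed blacklisted and greylisted regions (bedtools), per the series' design text. The deposited list gives start and end positions in bp (unit: other, no score) with the replicates merged, per its name; which caller and threshold were used is not given in the sources used here. Depth per sample is unknown.

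Peaks were joined to GENCODE M21 on GRCm38 by midpoint, with the 5′ end of each gene model for noncoding genes and every transcript start for protein-coding genes. Composition was read from 500 bp and words from 200 bp around the midpoint. Near-identical copies were sought with minimap2 2.31-r1302 for the central 150 bp, at 95% identity over 80% of it. RefSeq gave the mature miRNAs and coding starts of transcripts. Shares carry exact Clopper-Pearson 95% intervals and medians order-statistic intervals. The distance search was tested on simulated data. Other tools were Python 3.11.15, pandas 2.3.3, scipy 1.17.1 and samtools 1.23.1.

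The set and the 10 gene lists were chosen with earlier results of these data known. Genes named are the listed genes, those of the 10 widest peaks and of the 5 widest per type, those with 3 peaks and those next to the limits. Frmd8os and Mir6516, the nearest genes of peaks that count for listed genes, were added after their values were seen. Rnu3b2 and Rnu3b3 meet none of these rules. They are named beside the other U3 genes, Rnu3b1 and Rnu3b4, which are among the 10 widest. The alternatives tried were other distances, start definitions, chromosomes and filters on width, repeats and neighbouring genes. H2O2+ and H2O2- were not compared, and signal tracks were not analysed here.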

Additional observations from a re-analysis of the deposited data

How the results depend on the processing

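The set was redefined in 10 planned ways and in 1 chosen after seeing the data (leaving out peaks at RefSeq coding starts), and 6 results were computed each time. Of 66 values, 55 kept within the interval of the main value or within 1.5 times the count, and 11 moved. The share of peaks upstream of the 5′ end kept in all 11 (54.5 to 59.4%, against 56.6%). With 2 kb in place of 1 kb there were 960 peaks, 80.1% at lincRNA or antisense genes, with a median CpG observed/expected of 0.34 and 7.50% of genes with a peak. With 500 bp, 4.46% of genes had one. With 1 start per protein-coding gene the median CpG observed/expected was 0.46 and 6.14% of genes had a peak. With only peaks at or above the list's median width, 340 remained, with a median width of 365.5 bp and 3.13% of genes. Without peaks near another gene type, 4.80% of genes had one. The list gives no depth, so its effect was not tested. No paired analysis was possible because the list holds no value per sample.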
